A study of Mus musculus with 6 samples.

Results

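Car6, which encodes the secreted carbonic anhydrase of saliva and milk, and Car13, which encodes a cytosolic one, were lower in RAW264.7 macrophages on modified polyetheretherketone (PEEK) than on pristine PEEK. The other 8 carbonic anhydrase genes described here did not pass the threshold of the fit over all genes. The 10 genes (Car2, Car3, Car4, Car5b, Car6, Car8, Car9, Car12, Car13 and Car14) were matched by symbol among 19505 named genes, and they make up 10 of the 16 carbonic anhydrase genes on the array. They were chosen by family membership with earlier results of these arrays known, and a gene's probe set was to be selected on the highest mean over the 6 arrays. Each had 1 probe set, so that step made no choice. Their differences between the surfaces are therefore given as a description, and "past the threshold" only says where a gene stood in the fit over all genes.

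RAW264.7 is an established mouse macrophage line, and PEEK is a polymer used for bone implants. Both groups were cultured for 3 days, with 3 arrays from cells on pristine PEEK, the control, and 3 from cells on the modified surface; how the surface was modified is not stated in the labels. All samples come from 1 cell line, and nothing in the labels says that the replicates were independent cultures, so the spread between arrays may be technical. The values are log2 signals of total RNA on Affymetrix arrays, and the number of arrays limits their precision.

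Carbonic anhydrases are zinc enzymes that convert carbon dioxide and water to bicarbonate and a proton, and back. The forms differ in where they work, which may be the cytosol, the mitochondrion, the outer face of the plasma membrane or a secreted fluid. In the macrophage lineage they are best known from the osteoclast, the bone-resorbing cell, in which the Car2 enzyme supplies the protons that acidify the bone surface.

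Macrophage identity was checked with 7 measured marker genes, of which 6 lay above background on both surfaces; the list averaged 9.06 to 9.13 log2 on the pristine and 9.03 to 9.08 on the modified arrays. Its members went both ways in limma, with Adgre1 (0.54) and the dim Mertk (0.36) higher and Fcgr1 (-0.85) and Itgam (-0.59) lower on modified PEEK. The part of these markers in the carbonic anhydrase values was not tested. Background was set at 3.72 log2, the level that 95% of 1412 odorant and vomeronasal receptor genes stayed under. This level is lenient, since markers of other tissues also exceeded it: the muscle genes Mb, myoglobin (5.20 on pristine PEEK), and Ckm, a creatine kinase (5.72), the collagen gene Col1a1 (5.80) and the red-cell gene Slc4a1 (6.14, and 6.18 on modified PEEK). A signal between 3.72 and 6.18 was therefore also reached by genes of other cell types, and a fold against such a level, for any gene named here, is a lower limit where that signal is unspecific. Over all genes, 10.4% passed an adjusted p of 0.05 in limma (Benjamini-Hochberg), 5.24% as higher and 5.15% as lower on modified PEEK. The split was 1023 higher against 1004 lower as deposited, and 1575 against 290 with the arrays scaled to their poly-A spike-in controls. That scaling raised the median change of all genes by 0.25, from 0.0088 to 0.26.

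Of the 10 members, 2 were past the threshold as lower, beside the 5.15% of all genes, and 0 as higher, beside 5.24%. At an unadjusted p under 0.05 in the same limma fit, 2 were lower and 1, Car2, was higher. Over all genes, 22.7% had an unadjusted p under 0.05 in that fit, either direction counted. The arrays of the surfaces did not overlap for 3 members, Car2, Car6 and Car13, where 28.8% of all genes showed no overlap. Because the members were chosen with this contrast known, nothing is read from these shares. The median difference of the members was 0.117 log2, beside 0.0088 over all genes, and the median absolute difference 0.21 beside 0.15. On both surfaces 7 members lay above background, while Car3, Car8 and Car14 lay below it on both.

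**Figure D1:**
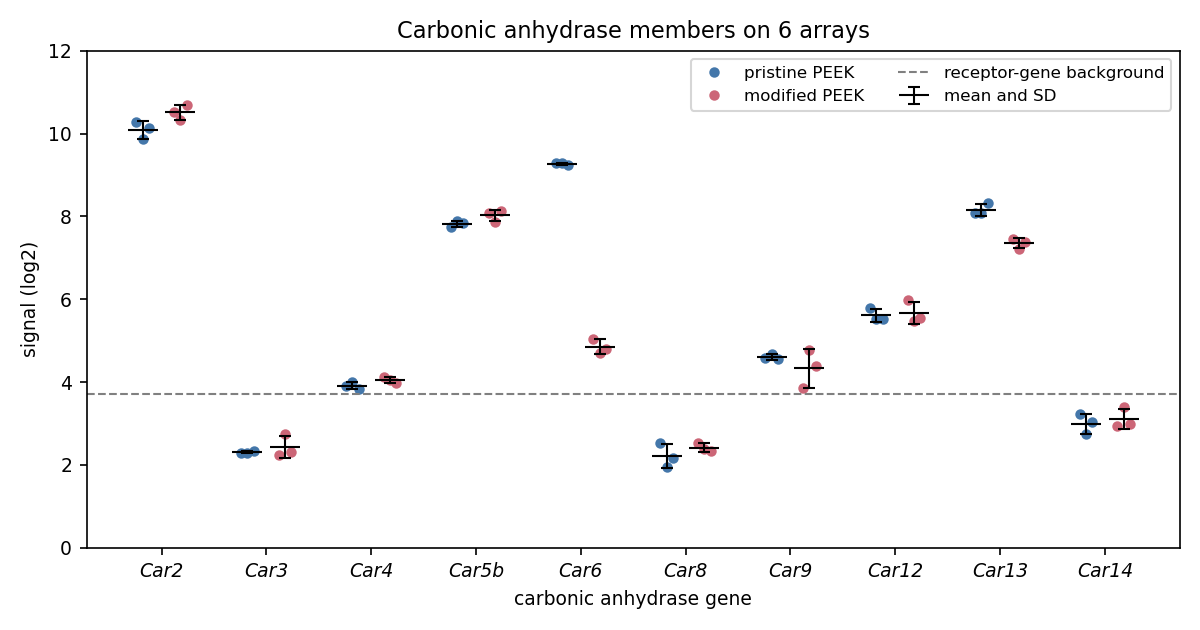
Log2 signal (y axis) of the 10 carbonic anhydrase members (x axis) on each array, with pristine PEEK in blue and modified PEEK in red; black marks are the mean and SD of 3 arrays and the dashed line is the background of 3.72. Car6 drops from about 9.27 to 4.85, Car13 from 8.16 to 7.35, and the other members stay close to their pristine level.

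Car6 encodes the family's secreted enzyme. On the pristine arrays its signal was 9.28, 9.28 and 9.24 log2, and on the modified arrays 5.05, 4.70 and 4.80. Every modified array lay far below every pristine one, with a gap of 4.19 between the nearest arrays, while the pristine arrays spanned only 0.04. The mean went from 9.27 ± 0.02 to 4.85 ± 0.18 (SD, n = 3), a fall of 4.41 ± 0.11 (SE) that passed the threshold and is 21.3-fold between the measured means. It was the third largest fall on the array (rank 3), and 0.0103% of genes had a larger difference in either direction. The level on modified PEEK was in the range that markers of other cell types also reached, so whether any Car6 transcript remained there cannot be told, and the fold is a lower limit if none did. In RNA of whole cultures, fewer cells with the transcript and less transcript per cell cannot be told apart.

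Besides the salivary protein, Car6 is known to give rise to an intracellular stress-induced form that depends on CHOP, the transcription factor encoded by Ddit3. Which form the probe set reads was not given in the annotation used here. Ddit3, looked at after its values were known, measured 9.61, 9.70 and 9.69 log2 on pristine and 8.77, 8.21 and 8.62 on modified PEEK. Its arrays did not overlap either, and it was lower by a factor of 2.19 (limma, adjusted p = 0.00216). These values are of the brighter of its 2 probe sets, and its call under other processing is not given. Whether Ddit3 had a part in the Car6 difference was not tested.

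The 250 bases before the annotated start of Car6 are shown because this gene carries the main difference, and 80 bases before the start of Car9 because Car9 is the family's textbook hypoxia target. Both come from RefSeq (build GRCm38.p6), Car6 from chr4:150201136-150201385 on the minus strand and Car9 from chr4:43506946-43507025 on the plus strand, written 5′ to 3′. Capitals mark every match of ACGTG, the core of hypoxia response elements, on either strand.
Car6: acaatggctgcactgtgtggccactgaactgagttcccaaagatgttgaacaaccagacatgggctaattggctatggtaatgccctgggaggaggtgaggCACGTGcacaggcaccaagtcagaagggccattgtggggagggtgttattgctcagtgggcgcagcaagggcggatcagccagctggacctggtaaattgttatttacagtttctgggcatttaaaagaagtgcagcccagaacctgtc
Car9: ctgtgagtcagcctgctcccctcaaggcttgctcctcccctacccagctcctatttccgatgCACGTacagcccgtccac

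In Car6 the marked letters hold the core on both strands, overlapping, at 149 to 144 bases before the start. These letters, CACGTG, read the same on both strands, so a match on either strand brings the other with it. In Car9 the core lies on the opposite strand at 18 to 14 bases before the start. Among members with a listed promoter (6 of 10), Car14 also held the core. It was present in 16.6% of 32851 listed promoter windows of the same 250 bases. The letters TGCAAT, the core of the element bound by CHOP with its C/EBP partners, were searched on both strands and were in none of the 6 members' windows, and in 7.32% of all. These are letter matches in a short window and say nothing of binding. Only bases before the annotated start were searched. The absence of TGCAAT there says nothing of sites elsewhere in Car6, nor of whether CHOP acts on it.

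Car13, Car1, Car3 and Car2 follow each other on chromosome 3 in the RefSeq annotation, with no other protein-coding gene between them, and all 4 encode cytosolic enzymes. Car13 measured 8.08, 8.08 and 8.32 log2 on pristine and 7.45, 7.22 and 7.39 on modified PEEK. All modified arrays lay below all pristine ones, with a gap of 0.63. The mean went from 8.16 ± 0.14 to 7.35 ± 0.12 (SD, n = 3), a fall of 0.80 ± 0.11 (SE), or 1.74-fold, that passed the threshold.

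Car2, the highly active cytosolic enzyme at the other end of this cluster, was 10.28, 9.86 and 10.14 log2 on pristine and 10.52, 10.33 and 10.70 on modified PEEK. The modified arrays were the 3 highest, but the gap of 0.05 was small beside the range within a surface (0.42 and 0.37). The difference was 0.42 ± 0.14 (SE) and did not pass. It passed in 2 of 15 alternative fits, at 0.67 when scaled to the spikes (0.41 relative to the median of all genes) and at 0.42 when the variance model followed intensity. Without 1 array it ran from 0.31 to 0.52 and passed in 0 of 6 fits. Between them, Car3, a low-activity enzyme abundant in muscle and fat, was at 2.25 to 2.74 on all 6 arrays, and Car1, the red-cell enzyme, at 3.10 to 3.67. Both were below background on both surfaces, so no fold is given for either.

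Car5b encodes a mitochondrial carbonic anhydrase. Its signal was 7.74, 7.88 and 7.83 log2 on pristine and 8.09, 7.87 and 8.12 on modified PEEK. Modified replicate 2 lay within the pristine range and the other 2 modified arrays above it. The difference of 0.21 ± 0.10 (SE) did not pass.

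Of the enzymes anchored in the plasma membrane with the active site outside, none passed. Car4, held by a lipid anchor, was 3.91, 4.0 and 3.84 log2 on pristine and 4.13, 4.04 and 3.98 on modified PEEK, close to background throughout, with a difference of 0.13 ± 0.09 (SE). Car9, a hypoxia-induced enzyme of many tumours, was 4.59, 4.68 and 4.55 on pristine and 3.85, 4.78 and 4.38 on modified PEEK. The modified arrays both undershot and overshot the pristine ones, and their range of 0.93 compared with 0.13 on pristine PEEK. The Car9 difference of -0.27 ± 0.21 (SE) was -0.03 without modified PEEK replicate 1 and -0.49 without modified PEEK replicate 2. Car12, the related enzyme of epithelia, was 5.79, 5.53 and 5.52 on pristine and 5.98, 5.48 and 5.55 on modified PEEK, with overlapping arrays and a difference of 0.06 ± 0.15 (SE), which was -0.10 without modified PEEK replicate 1. Car14 ranged from 2.74 to 3.39 over the 6 arrays, below background.

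Car8 encodes a protein without enzyme activity that binds an inositol trisphosphate receptor, a calcium release channel, and is best known from Purkinje neurons. It lay below background on every array, between 1.95 and 2.53. Of 3 receptor genes for this channel family only Itpr2 was among the named genes analysed, and Itpr1 and Itpr3 were not. Itpr2 is given as a gene of the family, not as the partner of Car8. Itpr2 was lower by 0.51 (difference -0.51 ± 0.12 SE, limma adjusted p = 0.0325). Leaving out any pristine array, or modified PEEK replicate 2 or 3, ended that call (adjusted p from 0.0677 to 0.121). So did centring the arrays on their medians (0.0524), scaling to the spikes (0.286) and the replicate block (0.0942).

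The 6 carbonic anhydrase genes outside the 10 members were tested in the same fit, and 1 was higher and 1 lower. Car7, a cytosolic enzyme of neurons, measured 5.57, 5.63 and 5.22 log2 on pristine and 5.08, 4.93 and 4.62 on modified PEEK, a difference of -0.60 ± 0.16 (SE; limma, adjusted p = 0.048). All modified arrays were below all pristine ones. Car5a, the mitochondrial form of liver, was 3.38, 3.35 and 3.46 on pristine and 3.68, 3.80 and 3.96 on modified PEEK (adjusted p = 0.0387), where its mean of 3.81 was barely above background and at least 1.07-fold higher. Neither call was firm: without 1 array the adjusted p of Car7 reached 0.147 (pristine PEEK replicate 1), 0.158 (pristine PEEK replicate 2), 0.0898 (modified PEEK replicate 2) and 0.145 (modified PEEK replicate 3), and scaled to the spikes it was 0.258. That of Car5a was 0.122, 0.137 and 0.0971 without pristine PEEK replicates 1, 2 and 3, and 0.0788 and 0.118 without modified PEEK replicates 2 and 3. With an intensity trend it was 0.113, and with the replicate number as a block 0.0864. Car10 and Car11, secreted proteins without enzyme activity (adjusted p = 0.477 and 0.664), Car15, a membrane-anchored form (0.437), and Car1 (0.725) did not pass. Of Ptprg and Ptprz1, receptor phosphatases with a carbonic anhydrase-like domain, 0 of 2 passed in limma, also at an unadjusted p under 0.05, and both lay below background.

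**Figure D2:**
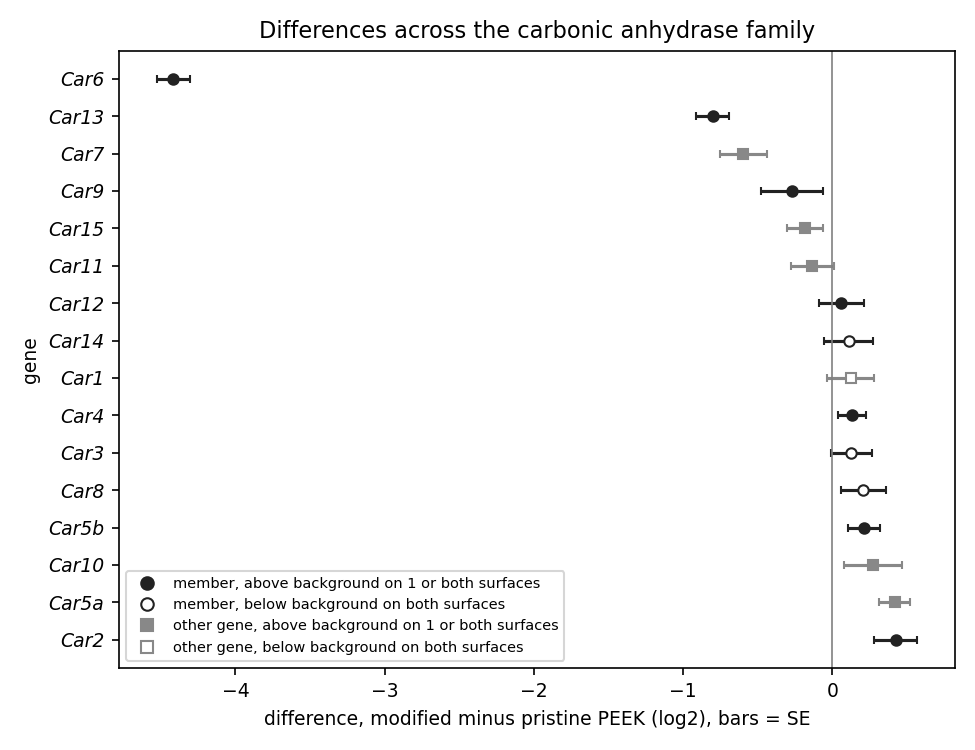
Difference in log2 signal, modified minus pristine PEEK (x axis, bars are SE), for the 16 carbonic anhydrase genes (y axis); circles are the 10 members, squares the other 6 genes, and open symbols lie below background on both surfaces. Car6 stands apart at -4.41, and the other 15 genes lie between -0.80 and 0.42.

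The differences of the members held their size to unequal degrees when the processing was varied. Both filters on dim genes, the probe-set mean, the intensity trend and the replicate block cannot change a member's difference. They bear only on its SE and its call. Over 15 alternatives the Car6 difference ran from -4.51 to -4.17 and that of Car13 from -0.85 to -0.56, and both passed in all 15. Both extremes nearest to 0 came from scaling to the spikes; relative to the median of all genes under that scaling, Car6 stood at -4.42 and Car13 at -0.81. The remaining members apart from Car2 passed in none of the alternatives that could be fitted for them, and those at small differences (Car3, Car12 and Car14) changed sign in 1 or 2 of them.

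**Figure D3:**
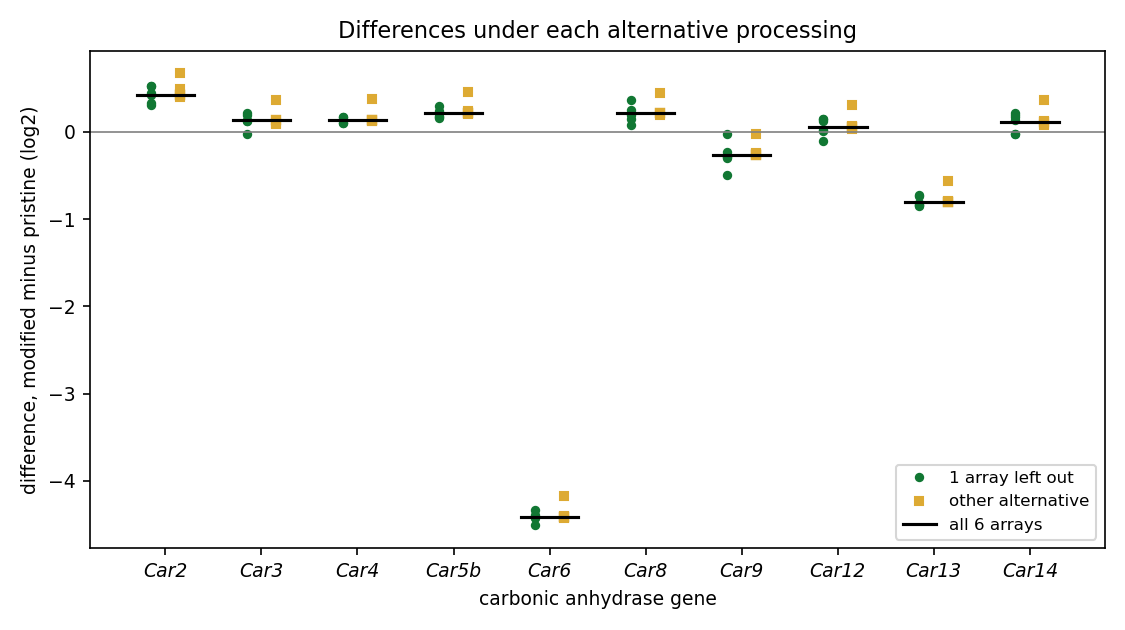
Difference in log2 signal, modified minus pristine PEEK (y axis), for each member (x axis); black lines are the fit of all 6 arrays, green circles the 6 fits without 1 array and yellow squares the other alternatives. Car6 stays between -4.51 and -4.17 and Car13 between -0.85 and -0.56, while Car9 spreads from -0.49 to -0.02.

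The genes with profiles most like those of the 2 members with the largest differences were found by the root mean square distance between centred log2 profiles over the 6 arrays. For Car6 these were the macrophage elastase gene Mmp12 (0.554), the chemokine gene Cxcl2 (0.591) and Fam171b (0.641). For Car13 they were Mib2, a ubiquitin ligase gene (0.041), Oas1a, an interferon-induced oligoadenylate synthetase gene (0.061), and Stam2, an endosomal sorting gene (0.064). Few genes differed by as much as Car6, and its distances were the larger ones; with 6 arrays in 2 groups such likeness mostly restates the difference between the surfaces.

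Genes of the osteoclast acid secretion machinery, in which the Car2 enzyme works, held 3 lower and 0 higher genes of 9. Over all genes 5.15% were lower and 5.24% higher, the shares to set beside this and the following list counts. The median difference of the 9 genes was -0.303 log2 beside 0.0088 over all genes. Atp6v0d2, a subunit of the proton pump, measured 9.23, 9.41 and 9.37 on pristine and 7.10, 6.78 and 6.84 on modified PEEK (5.39-fold lower; limma, adjusted p = 4.02e-05). Acp5, tartrate-resistant acid phosphatase, was 2.65-fold lower (adjusted p = 0.000369), and Clcn7, the chloride-proton exchanger that accompanies the pump, 1.59-fold lower (adjusted p = 0.0132). The Clcn7 call was lost without pristine PEEK replicate 1 (0.0541), pristine PEEK replicate 3 (0.0562) or modified PEEK replicate 3 (0.0556), and under spike scaling (0.139). The pump subunit gene Tcirg1 (9.75 ± 0.03 and 9.68 ± 0.06; SD, n = 3) and Snx10 (9.67 ± 0.05 and 9.37 ± 0.09) did not pass. With an intensity trend, or without genes below background, 5 of the 9 passed. Among 7 osteoclast markers 3 were lower and 0 higher. The list averaged 5.40 to 5.54 on pristine and 4.90 to 4.99 on modified arrays. Acp5 and Ctsk are on both this list and the acid secretion list, so the lower Acp5 is counted in each. Ocstamp was higher by 0.33 without passing. Calcr lay below background on both surfaces, and Mmp9 and Itgb3 on modified PEEK. Car2 itself was not lower on any modified array than on any pristine one. The part of these genes in the carbonic anhydrase values was not tested.

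Of 11 measured bicarbonate transporter genes 0 passed in limma, and 1 had an unadjusted p under 0.05. This was Slc4a2, the anion exchanger that returns bicarbonate from the osteoclast to the blood side, with a mean of 6.48 ± 0.21 on the control arrays against 6.0 ± 0.18 (SD, n = 3; adjusted p = 0.0703). Slc4a1, the red-cell exchanger, had a difference of 0.03. Of 14 proton and lactate transporter genes 1 was higher and 0 lower. Slc16a7, a monocarboxylate transporter, rose 1.48-fold (adjusted p = 0.0177), a call that ended without pristine PEEK replicate 1 (0.0684), pristine PEEK replicate 3 (0.0798), modified PEEK replicate 1 (0.0513) or modified PEEK replicate 3 (0.0724) and with the replicate block (0.0693). The related Slc16a1 (0.36 log2, limma, adjusted p = 0.0529) and Bsg, the partner protein of the Slc16a1 transporter (-0.01, adjusted p = 0.98), did not pass.

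Of 7 water and gas channel genes 1 was lower and 0 higher. This was Aqp9, a water and glycerol channel of leukocytes, at 7.88, 7.94 and 7.96 on pristine and 5.89, 5.15 and 5.46 on modified PEEK, a 5.36-fold difference (limma, adjusted p = 0.000218). Aqp3 and Aqp1 had differences of 0.11 and -0.05 and did not pass.

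Among 11 enzymes that use bicarbonate or serve those that do, 2 were higher and 1 lower. Acaca, the acetyl-CoA carboxylase of fatty acid synthesis, rose 1.51-fold (limma, adjusted p = 0.0084), and Cad, which starts pyrimidine synthesis, rose 1.45-fold (adjusted p = 0.0288). Mccc1, a subunit of the leucine-breakdown carboxylase, fell 1.55-fold (adjusted p = 0.00712; 0.132 when scaled to the spikes), while its partner subunit Mccc2 had a difference of 0.15 and did not pass. The Cad call was lost without pristine PEEK replicate 1 (0.0956), 2 (0.084) or 3 (0.0943), without modified PEEK replicate 3 (0.0693) and with the replicate block (0.0746). Pcca did not pass (-0.15, adjusted p = 0.582).

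The hypoxia reference genes, listed because Car9 and Car12 are known hypoxia targets, held 3 higher and 3 lower of 12 at the threshold. Over all genes 5.24% were higher and 5.15% lower. At an unadjusted p under 0.05 in the same limma fit 9 of the 12 differed, beside 22.7% of all genes. The list median was 0.143 log2 beside 0.0088. With an intensity trend 9 passed, without genes below background 7, and when scaled to the spikes or with the replicate block 5. Pdk1, a pyruvate dehydrogenase kinase gene, rose 1.92-fold (limma, adjusted p = 0.000615). Egln3, an oxygen-sensing hydroxylase, was at least 1.65-fold higher from a level just below background (limma, adjusted p = 0.00544). The glucose transporter gene Slc2a1 fell 1.82-fold (adjusted p = 0.00156) and Ndrg1 1.81-fold (adjusted p = 0.00168). Ldha (0.22) and Pgk1 (0.09), of glycolysis, did not pass, nor did Car9 and Car12 above.

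Of 4 measured sensors of protons or bicarbonate, Gpr65, a proton-sensing receptor of leukocytes, was 7.62, 7.62 and 7.61 on pristine and 8.09, 8.12 and 7.95 on modified PEEK, a 1.35-fold rise (limma, adjusted p = 0.0204). Its call was lost without pristine PEEK replicate 1 (0.0728), 2 (0.0778) or 3 (0.0872), without modified PEEK replicate 2 (0.0551) and with the replicate block (0.075). Gpr132 (-0.07) and Gpr4 (-0.25, below background) did not pass.

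**Figure D4:**
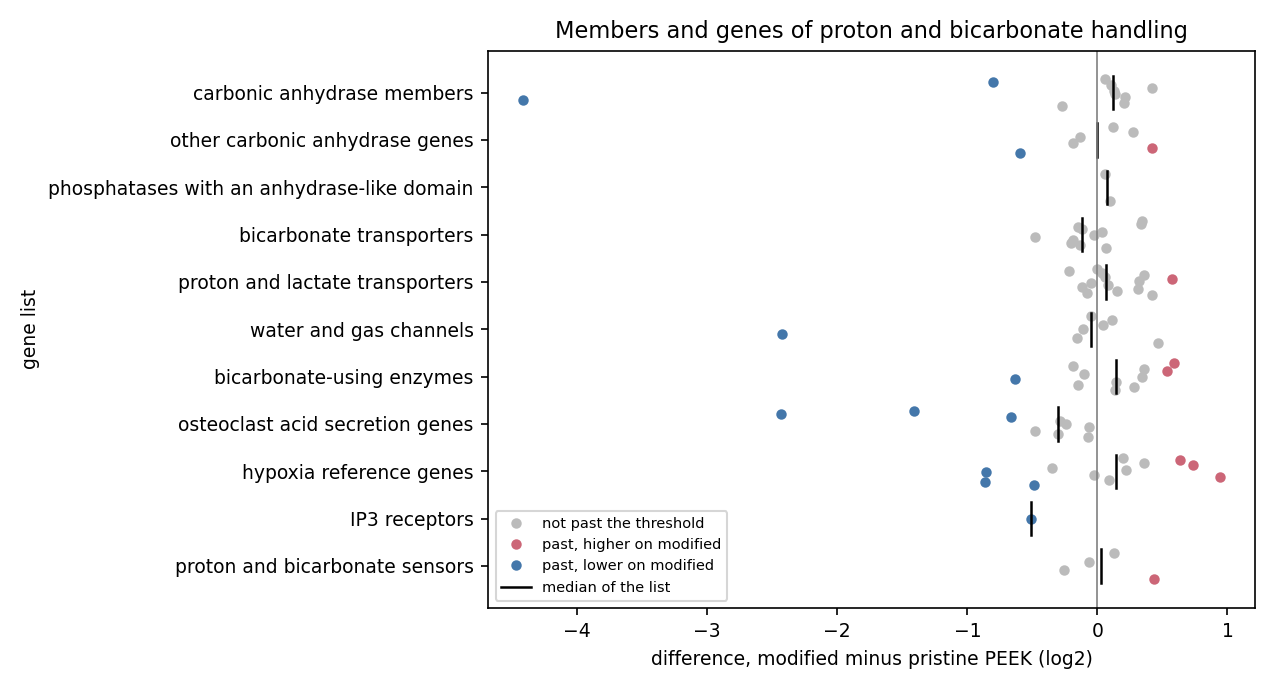
Difference in log2 signal, modified minus pristine PEEK (x axis), of each measured gene of the members and of 10 other lists (y axis); red and blue points passed the threshold as higher or lower, grey points did not, and black ticks are list medians. The members' median is 0.117 with Car6 far to the left at -4.41, and the osteoclast acid secretion list has its median at -0.303.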

How the data were processed

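Biotin-labelled cDNA of 6 RNA samples was hybridised, per the labels' protocols. The deposited table holds 1 log2 signal per probe set and array. The submitters' processing notes name RMA, which corrects background, equalises quantiles between arrays and summarises probes, and give neither its version nor its role. Where quantiles are equalised, a change in total RNA per cell is not seen. That the scale is log2 was taken from the range (0.941 to 12.4). Genes were named by the platform annotation. Only probe sets that named 1 gene were kept, 19572 of 29129, so a listed gene can be missing for that reason. The brightest probe set was kept for 55 genes that had several, and 0 columns were left unused. The genome build of the deposited data was not given, so coordinates are printed only for the RefSeq stretches before Car6 and Car9.

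Surfaces were compared over all 19505 genes with limma 3.58.1 in R 4.3.3 (lmFit, eBayes without trend, two-sided, Benjamini-Hochberg, threshold 0.05), on 4 residual and 4.09 prior degrees of freedom. The script was tested on simulated data. Folds are powers of 2 of log2 differences, and where 1 surface lay below background a bound against background.

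The members and lists were chosen with earlier results of these data known. Named were all members, the other family genes and, per list, up to 4 genes past the threshold with the largest change and up to 2 of the highest level that did not pass; Ddit3, the 4 genes set beside the background and the motifs were chosen after values were seen. Alternatives (below) changed the normalization, filters, probe summary or variance model, added a replicate block, or left out an array. Some genes of these lists were not analysed here.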

Additional observations from a re-analysis of the deposited data

How the results depend on the processing

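The 2 members past the threshold as lower, Car6 and Car13, were past it in each of the 15 alternatives. Car3, Car8 and Car14 were removed by both filters on dim genes and have 13. Members past it as higher numbered 0, and 1 (Car2) when scaled to the poly-A spikes or with an intensity trend. Scaling to the spikes moved all genes together, so the members' own differences rose by 0.25 each. The poly-A spikes averaged 6.96 ± 0.15 on pristine and 6.71 ± 0.14 on modified arrays (SD, n = 3; two-sided exact permutation p = 0.2, where no p under 0.1 can occur), and why was not tested. Genes passing as higher and lower numbered 1575 and 290 with that scaling, 1586 and 1719 with an intensity trend, and 646 and 622 with the replicate block. Without 1 array they ran from 594 to 903 and from 548 to 1048.

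Of the lists, other carbonic anhydrase genes passing (2) numbered 1 when scaled to the spikes, with an intensity trend and with the replicate block, and 0 to 2 without 1 array. Bicarbonate transporters (0) numbered 1 with repeated quantile normalization, without the lowest 25% of genes, without genes below background, with an intensity trend and with array weights, and 0 to 1 without 1 array. Proton and lactate transporters (1) numbered 3 under those same 5 settings and when scaled to the spikes, 0 with the replicate block, and 0 to 2 without 1 array. Water and gas channels (1) numbered 2 when scaled to the spikes. Bicarbonate-using enzymes (3) numbered 5 without the lowest 25% or without genes below background. Osteoclast acid secretion genes (3) numbered 5 without genes below background or with an intensity trend, and 2 to 4 without 1 array. Inositol trisphosphate receptors (1) numbered 0 when centred on array medians, scaled to the spikes or with the replicate block, and 0 to 1 without 1 array. Proton and bicarbonate sensors (1) numbered 0 with the replicate block and 0 to 1 without 1 array. The cause of these changes was not tested.

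Pairing by replicate number was not evident: deviations from the group means correlated at -0.171, -0.161 and 0.0685 for numbers 1, 2 and 3. Unequal numbers gave -0.071 to 0.221. With 3 arrays per surface such correlations cannot show that samples were unpaired. The block is used only as an alternative setting, and it ended no call among the members. With 3 arrays per surface and a lenient background, levels between 3.72 and 6.18, which include Car4, Car9, Car12 and Car6 on modified PEEK, cannot be separated from unspecific signal. At the 99th percentile of the receptor genes (4.62), 5 in place of 7 members were above background, and at the 90th, 7.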
